A study of Mus musculus with 6 samples.

Results

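The Sorbs adaptors and Z-line-like actin linkers are 7 genes, Sorbs2, Sorbs3, Synpo2, Palld, Actn1, Actn4 and Vcl, whose proteins tie actin filaments to one another, to dense bodies and to the cell membrane. Their members on the chip were the probe sets for which the platform annotation gives the symbol of 1 of these genes and no other. There were 19 such probe sets, out of 34945 with a single gene symbol and 45037 in all. The group was chosen by function, but with the Notch3-/- minus Notch3+/+ values of these arrays known, and in particular the lower level of Sorbs2 in Notch3-/- arteries. The comparison of the genotypes is therefore a description of these 7 genes and not independent evidence about them.

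Caudal arteries, which supply the tail, came from mice of 4 weeks of age (P28) in 2 genotypes: Notch3-/-, lacking a Notch receptor found on arterial smooth muscle, and Notch3+/+. Each of the 6 arrays held RNA from arteries pooled over mice, 4 per pool in all 3 Notch3-/- replicates and 4, 3 and 3 in Notch3+/+ replicates 1 to 3. The sources used here do not describe the targeted allele, the strain or the sex of the mice. An artery is a mixture of cells, so fewer cells of a type and less RNA per cell cannot be told apart in any value below.

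Smooth muscle has no sarcomeres. Its actin filaments are anchored instead in dense bodies inside the cell and in adhesion plaques at the membrane, which share proteins with the Z-line and the costamere of striated muscle. Alpha-actinin crosslinks the filaments, vinculin couples them to talin and the integrins at the plaque, and palladin, synaptopodin 2 and the Sorbs adaptors dock on these proteins and recruit kinases and further actin regulators.

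Start regions of Sorbs2 are shown because its tested probe sets ranged in change from -0.94 to -0.04 and RefSeq lists several starts for it. That disagreement was not called. The start region of Vcl is shown because it held the only CArG box, the binding site of serum response factor, among the promoters of these genes. Each runs from 250 bases before to 50 after a start listed by RefSeq (GRCm38.p6), 5′ to 3′ on the plus strand, and capitals mark a CArG box or the letters TGGGAA, the core of the site bound by RBPJ, the DNA-binding partner of activated Notch, on either strand.
Sorbs2 start 1, chr8:45507538-45507837: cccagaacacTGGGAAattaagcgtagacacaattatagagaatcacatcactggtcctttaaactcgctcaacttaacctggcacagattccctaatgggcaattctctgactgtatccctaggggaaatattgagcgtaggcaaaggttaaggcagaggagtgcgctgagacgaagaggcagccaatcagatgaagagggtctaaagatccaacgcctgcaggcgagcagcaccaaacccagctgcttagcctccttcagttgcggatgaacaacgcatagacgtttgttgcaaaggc
Sorbs2 start 2, chr8:45627501-45627800: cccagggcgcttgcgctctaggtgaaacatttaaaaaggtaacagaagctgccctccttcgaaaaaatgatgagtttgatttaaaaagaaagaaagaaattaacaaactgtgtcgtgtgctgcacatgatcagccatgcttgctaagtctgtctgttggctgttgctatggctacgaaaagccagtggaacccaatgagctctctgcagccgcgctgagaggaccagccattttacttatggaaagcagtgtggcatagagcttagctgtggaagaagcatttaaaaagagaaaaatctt
Sorbs2 start 3, chr8:45661743-45662042: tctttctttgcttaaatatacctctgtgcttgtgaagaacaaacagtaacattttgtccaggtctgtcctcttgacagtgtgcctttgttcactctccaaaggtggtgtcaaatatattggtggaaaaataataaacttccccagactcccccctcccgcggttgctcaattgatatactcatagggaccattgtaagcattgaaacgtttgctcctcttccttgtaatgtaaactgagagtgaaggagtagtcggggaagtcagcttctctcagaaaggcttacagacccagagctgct
Vcl, chr14:20929148-20929447: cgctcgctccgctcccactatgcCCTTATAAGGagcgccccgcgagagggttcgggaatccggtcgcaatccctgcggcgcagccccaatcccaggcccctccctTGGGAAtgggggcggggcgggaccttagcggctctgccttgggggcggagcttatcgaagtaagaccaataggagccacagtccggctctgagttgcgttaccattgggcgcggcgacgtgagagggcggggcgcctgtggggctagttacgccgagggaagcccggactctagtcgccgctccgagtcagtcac

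The RefSeq table held 10 promoters for 6 of the 7 genes, 3 each for Sorbs2 and Palld. TGGGAA occurred in 5 of these 10, against 25.6% of all 32851 promoters of this length: in the first of 3 Sorbs2 starts, whose match begins at position -240 from the start, in 1 of 3 Palld starts and in those of Actn1, Actn4 and Vcl. The CArG box of Vcl begins at position -227, and 1.63% of all promoters held one. These matches are letters in a window and do not show binding, and the deposited values do not tell which start a probe set reads.

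Values below are log2 expression values per probe set, as the authors deposited them, so that a difference of 1 is a 2-fold difference. Differences are Notch3-/- minus Notch3+/+ with the standard error (SE) of limma's fit, and a probe set is said to have risen or fallen only where its p, adjusted over all 27027 tested probe sets, was under 0.05. Of the 19 member probe sets 18 were bright enough to be tested. Among these 1 fell and 0 rose, where 0.252% of all tested probe sets were called in either direction, 0.115% lower and 0.137% higher, and 4 of 18 had an unadjusted p under 0.05, against 11.4% of all tested probe sets. The genotypes had no overlapping pools on 4 of 18, with 3 lower and 1 higher in Notch3-/- arteries, against 16.2% of all tested probe sets, 7.75% lower and 8.43% higher. When limma weighted the arrays by their quality, 3 member probe sets were called, the first and second of Sorbs2 and the second of Synpo2, among 978 in all, against 68 without weights. That fit leaned on 1 pool per genotype. Notch3-/- replicate 3 was weighted at 3.04 and Notch3+/+ replicate 2 at 2.94, and the other arrays at 0.29 to 0.84. The median change over the 18 was -0.09, beside -0.01 over all tested probe sets. Notch3 itself, on its brighter probe set, read 6.51, 6.44 and 5.87 in the Notch3-/- pools and 9.94, 9.95 and 10.09 in the Notch3+/+ pools, so the labels match this transcript.

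Sorbs2, which encodes an adaptor with a sorbin homology region and SH3 domains that binds Abl kinases and localises to stress fibres and Z-lines, was the gene among the 7 with a called probe set. On its brightest probe set, 1437197_at, it read 10.17, 9.90 and 10.20 in Notch3-/- replicates 1 to 3, against 10.83, 11.02 and 11.16 in the Notch3+/+ replicates. Every Notch3-/- pool lay below every Notch3+/+ pool, and the gap between the groups was wider than the range within either. The means were 10.09 ± 0.17 in Notch3-/- and 11.00 ± 0.17 in Notch3+/+ arteries (SD, n = 3 each), so Sorbs2 fell by 0.91 (SE 0.12), or 1.88-fold. By p this probe set stood at place 57 of the 27027. Omitting any 1 of the 6 arrays ended the call, while the change stayed between -1.0 and -0.82; limma's adjusted p was lowest, at 0.0636, when Notch3+/+ replicate 1 was omitted and highest, at 0.275, when Notch3+/+ replicate 2 was. The call also ended with arrays weighted by mice pooled (adjusted p = 0.054), with the replicate number as a block (0.0654) and with Sorbs2 taken as the mean of its tested probe sets (0.0954).

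A second Sorbs2 probe set, 1441624_at, differed by as much but varied more within each genotype. It read 6.40, 7.0 and 6.52 in Notch3-/- pools, against 7.02, 7.67 and 8.06 in Notch3+/+ pools. The groups did not overlap, but Notch3-/- replicate 2 and Notch3+/+ replicate 1 were only 0.02 apart. Its difference of -0.94 (SE 0.27) was not called.

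The other Sorbs2 probe sets showed no such difference. On 1446744_at the Notch3-/- pools read 4.26, 4.23 and 4.59 and the Notch3+/+ pools 4.31, 4.51 and 4.38, a difference of -0.04 (SE 0.12) with overlapping groups. The fourth, 1431192_at, lay between 2.40 and 2.70 in Notch3-/- pools, against 2.35 to 2.77 in the Notch3+/+ pools, below the level of 3.83 required for testing. The deposited values carry no detection call for either of them.

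The distance between 1446744_at and the brightest Sorbs2 probe set was taken within each array to set the disagreement against the spread between pools. It was -5.91, -5.67 and -5.61 in Notch3-/- pools, against -6.52, -6.51 and -6.78 in Notch3+/+ pools. The groups did not overlap, and the changes of these probe sets differed by 0.87 (SE 0.13). This difference was not called, with an adjusted p of 0.288 in limma over all pairs of probe sets of 1 gene. It is mostly the fall of the brightest probe set, for which Sorbs2 was noticed, so the gap is a description. The range of changes within Sorbs2 was 0.90 over 3 tested probe sets. The median range over the 5915 genes with more than 1 tested probe set was 0.18, but 3400 of these genes had only 2. The range of Sorbs2 holds the fall for which Sorbs2 was noticed and is a description. For 1441624_at the same distance changed by -0.03 (SE 0.26), so the brighter pair of Sorbs2 probe sets differed by less than the spread between pools.

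**Figure D1:**
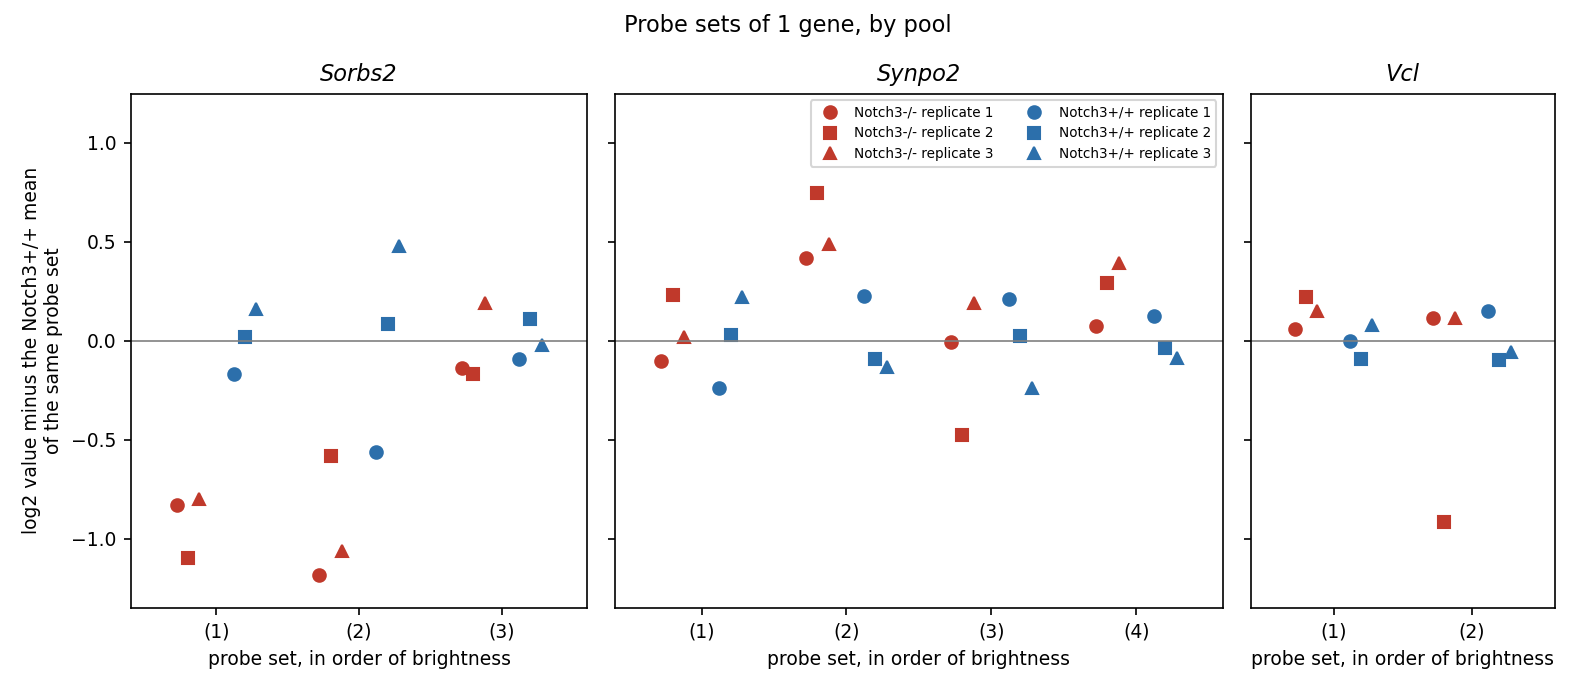
Log2 value of each pool minus the Notch3+/+ mean of the same probe set, for the tested probe sets of Sorbs2, Synpo2 and Vcl in order of brightness, with Notch3-/- pools in red and left of the Notch3+/+ pools in blue. The first and second Sorbs2 probe sets lie lower in all 3 Notch3-/- pools and the third does not, the second Synpo2 probe set lies higher, and on the second Vcl probe set Notch3-/- replicate 2 stands alone, at 6.99 before the mean is subtracted.

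Markers of other cells also differed between the same pools, though few were called. By brightest probe set limma called 0 of 12 endothelial, 1 of 10 fibroblast and 0 of 7 mast cell markers. Over all 12732 genes 0.322% were called in this way. Of 11 macrophage and leukocyte markers 0 were called by brightest probe set and 1 on another probe set. The summed linear level of 12 endothelial markers was 5800 to 6430 in Notch3-/- pools, against 6720 to 7620 in the Notch3+/+ pools, with 9 of 12 lower in Notch3-/- arteries, and that of 10 fibroblast markers was 22900 to 24500 in Notch3-/- pools, against 20700 to 22200 in the Notch3+/+ pools, with 10 of 10 higher. The sums of 15 skeletal muscle markers, between 1170 and 2490 in Notch3-/- pools, against 1700 to 2270 in the Notch3+/+ pools, overlapped. So did those of 12 smooth muscle markers, between 46200 and 48600 in Notch3-/- pools, against 41500 to 48200 in the Notch3+/+ pools. That sum hides smooth muscle genes that differed in both directions, with 8 of 12 higher and 4 lower, from -0.58 to 0.66. Of these, 2 higher and 2 lower had an unadjusted p under 0.05 in limma, against 11.9% of all genes, and 0 were called. All 7 mast cell markers were higher, with a median change of 0.76 and sums of 1460 to 2490 in Notch3-/- pools, against 827 to 1790 in the Notch3+/+ pools. The same held for all 11 markers of macrophages and leukocytes, at a median change of 0.50 and with sums of 2620 to 3490 in Notch3-/- pools, against 1660 to 2760 in the Notch3+/+ pools. The sums of 4 keratinocyte markers were 133 to 144 in Notch3-/- pools, against 196 to 231 in the Notch3+/+ pools, with 3 of 4 higher and the remaining one, the desmosome gene Perp, fell by 2.12. Adipocyte and Schwann cell sums overlapped. Of the skeletal list Myh4 and Neb lay below the level required for testing. The part of these shifts in the Sorbs2 values was not tested.

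Sorbs3 encodes vinexin, an adaptor of the same family that binds vinculin. Its only probe set, 1419329_at, read 7.49, 6.70 and 7.36 in Notch3-/- pools, against 7.37, 7.16 and 7.25 in Notch3+/+ pools. Notch3-/- replicate 2 was the lowest of the 6 arrays and the other 2 Notch3-/- pools lay inside or above the Notch3+/+ range. The difference was -0.08 (SE 0.20), and 0.17 without Notch3-/- replicate 2.

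Synpo2 encodes synaptopodin 2, also called myopodin, which bundles actin, binds alpha-actinin and takes part with Bag3 in the turnover of filamin under tension. Its brightest probe set, 1435399_at, read 10.45, 10.78 and 10.57 in Notch3-/- pools, against 10.31, 10.58 and 10.77 in Notch3+/+ pools. The groups overlapped, and the difference of 0.05 (SE 0.14) turned to -0.01 under a further quantile normalization.

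On 1441206_at, by contrast, Synpo2 read 7.03, 7.36 and 7.10 in Notch3-/- pools and 6.84, 6.52 and 6.48 in Notch3+/+ pools. Every Notch3-/- pool lay above every Notch3+/+ pool, which held for no other member probe set. The means were 7.16 ± 0.17 in Notch3-/- and 6.61 ± 0.20 in Notch3+/+ arteries (SD, n = 3 each), a difference of 0.55 (SE 0.13), or 1.46-fold, which was not called. The other Synpo2 probe sets differed by 0.25 (SE 0.11) for 1452879_at and by -0.10 (SE 0.19) for 1450828_at, both with overlapping groups. The range of changes within Synpo2 was 0.65 over 4 probe sets. Among genes with the same number of tested probe sets 3.18% had a range at least as wide. Taken within each array, the distance of 1441206_at from 1435399_at changed by 0.50 (SE 0.19). Its groups overlapped and it was not called.

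Palld encodes palladin, an immunoglobulin-domain scaffold that binds alpha-actinin and regulators of actin assembly. Its probe set 1427228_at read 9.73, 9.73 and 9.69 in Notch3-/- pools, against 9.63, 9.80 and 10.14 in Notch3+/+ pools. The Notch3-/- pools lay within 0.04 of one another and inside the Notch3+/+ range, whose upper end was Notch3+/+ replicate 3. The difference was -0.14 (SE 0.13), and 0.0017 without that array. The equally bright 1433768_at gave -0.07 (SE 0.09), with Notch3-/- pools at 9.74 to 9.77 and Notch3+/+ pools at 9.69 to 9.96. Of the dimmer probe sets, 1440635_at differed by 0.09 (SE 0.17) and 1440693_at by -0.26 (SE 0.15).

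Actn1 and Actn4 encode the non-muscle alpha-actinins, the filament crosslinkers on which palladin and synaptopodin 2 dock. The brightest Actn1 probe set, 1428585_at, read 10.79, 10.92 and 10.79 in Notch3-/- pools, against 10.77, 10.70 and 10.92 in Notch3+/+ pools. The Notch3-/- pools lay inside the Notch3+/+ range, with a difference of 0.04 (SE 0.09). The other Actn1 probe sets had the opposite sign, at -0.19 (SE 0.11) for 1452415_at and -0.30 (SE 0.17) for 1427385_s_at, whose suffix marks probes that can also match other transcripts. Taken within each array, 1452415_at minus 1428585_at was -2.68, -2.95 and -2.72 in Notch3-/- pools, against -2.58, -2.61 and -2.48 in Notch3+/+ pools. These groups did not overlap, and the changes differed by -0.23 (SE 0.11).

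The single Actn4 probe set, 1423449_a_at, read 10.73, 10.62 and 10.69 in Notch3-/- pools and 10.77, 10.82 and 11.07 in Notch3+/+ pools. All Notch3-/- pools were lower, the nearest by 0.04, and the difference of -0.21 (SE 0.10), or 1.15-fold, was not called.

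Vcl encodes vinculin, the partner of talin, alpha-actinin and the Sorbs adaptors at adhesion plaques. Its brighter probe set, 1416156_at, read 10.77, 10.93 and 10.86 in Notch3-/- pools, against 10.71, 10.62 and 10.79 in Notch3+/+ pools, a difference of 0.15 (SE 0.08). The groups overlapped by the lowest Notch3-/- and the highest Notch3+/+ pool. The other, 1416157_at, read 8.02, 6.99 and 8.02 in Notch3-/- pools and 8.06, 7.81 and 7.85 in Notch3+/+ pools. Its difference of -0.23 (SE 0.27) rested on Notch3-/- replicate 2 and was 0.11 without it.

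**Figure D2:**
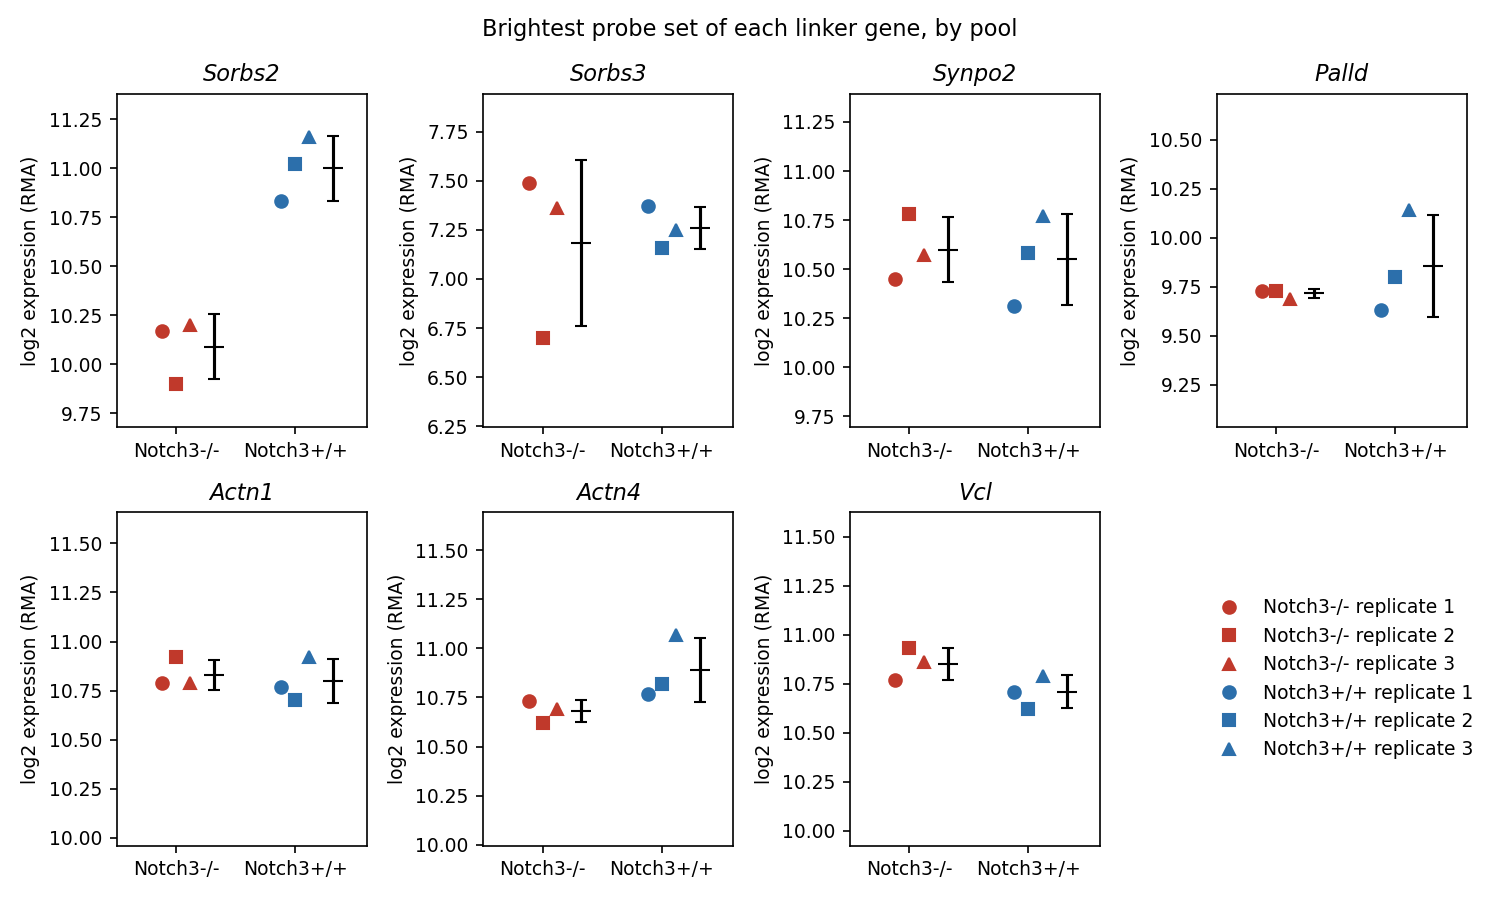
Log2 expression on the brightest probe set of each of the 7 genes, with the 3 Notch3-/- pools left of the 3 Notch3+/+ pools, all panels spanning the same height. Bars are the mean ± SD (n = 3). The genotypes are apart for Sorbs2 and, narrowly, for Actn4, and overlap for the other 5 genes.

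Notch3-/- replicate 2, which stood apart from the other arrays in the first principal component (39.5, against -17.1 to 5.85), was the lowest of the 6 arrays on 9 of the 18 member probe sets, where it was the lowest on 28.3% of all tested probe sets. Notch3+/+ replicate 3 was the highest on 7 of 18, against 17.5% of all tested probe sets. Without Notch3-/- replicate 2 the Sorbs2 change was -0.82 on the brightest and -1.12 on the second probe set, and 0 member probe sets were called.

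Disagreement between probe sets of 1 gene was compared for every gene with several tested probe sets, as the per-array distance of each further probe set from the brightest. Of 11 such pairs among 5 of the 7 genes 2 had an unadjusted p under 0.05 in limma and 0 were called (2 with array weights), and of all 10093 pairs 0% were called (703 pairs with array weights) and 8.87% had an unadjusted p under 0.05. The distances did not overlap between the genotypes in 2 of the 11 pairs, 1 of Sorbs2 and 1 of Actn1, against 16.7% of all pairs. The Sorbs2 pair holds the fall for which that gene was noticed. The range of changes was 0.38 within Vcl over 2 probe sets, 0.35 within Palld over 4 and 0.34 within Actn1 over 3. Among genes with the same number of tested probe sets, 6.59%, 30.8% and 21.0% had a range at least as wide, respectively.

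**Figure D3:**
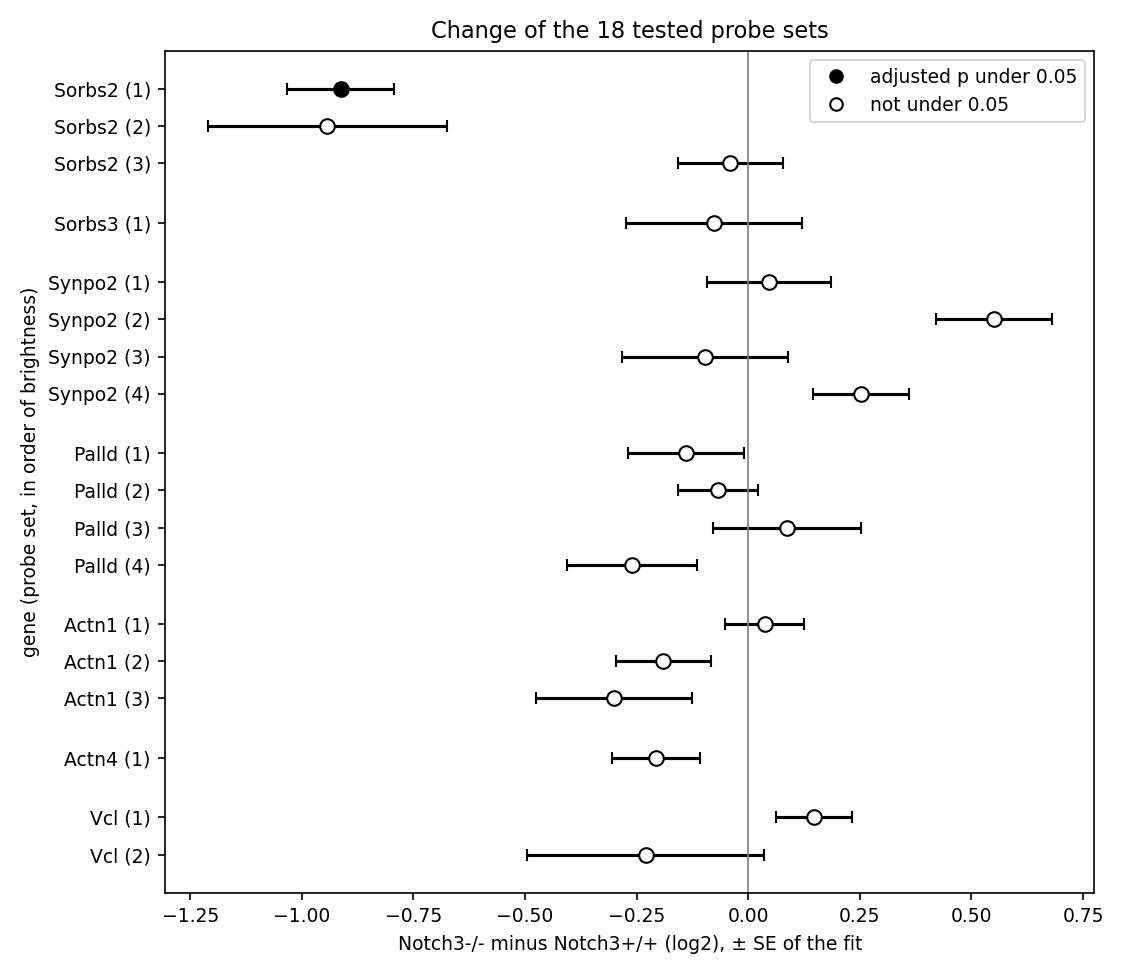
Notch3-/- minus Notch3+/+ difference (log2) of the 18 tested probe sets with the SE of the fit, by gene and in order of brightness. The filled point, Sorbs2 at -0.91, is the one with an adjusted p under 0.05; the third Sorbs2 probe set lies at -0.04 and the second Synpo2 probe set at 0.55.

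The other genes listed for the same structures gave 0 calls. Of 54 listed linkers and partners 50 were tested by their brightest probe set, and 0 rose and 0 fell in limma (5 were called when the arrays were weighted by their quality), where 0.322% of all 12732 genes were called, 0.196% higher and 0.126% lower. An unadjusted p under 0.05 was found for 11 of the 50, against 11.9% of all genes. Myot and Mypn lay below the level required for testing, and the rest were not analysed here. The lists do not hold every gene of these structures, so the 0 covers the listed genes only. The desmin gene Des and the LIM protein gene Fhl2, named after their values were seen, are not on them. Des rose by 2.01 (SE 0.15) and Fhl2 by 0.63 (SE 0.08). Unlisted genes of these structures were not counted in either direction.

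Among 18 focal adhesion and costamere linkers 1 had an unadjusted p under 0.05, and the list median was 0.01, beside 0.00 over all tested genes. Lasp1, a LIM and SH3 protein that binds actin and palladin, differed by 0.67 (SE 0.12) on its brightest probe set, with Notch3-/- pools at 9.64 to 10.03, against Notch3+/+ pools at 9.06 to 9.31, and its 9 probe sets ran from 0.06 to 0.67. The paxillin gene Pxn differed by 0.18, Lims1 by -0.18, the parvin gene Parva by 0.12 and the talin gene Tln2 by 0.09, all with an SE of 0.08 to 0.10.

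The 21 tested Z-line and dense body linkers held 10 of the 11 genes with an unadjusted p under 0.05, 7 higher and 3 lower in Notch3-/- arteries, with a median of 0.07. Nebl, which encodes the Z-line protein nebulette, read 6.17, 5.88 and 5.57 in Notch3-/- pools, against 5.40, 4.64 and 4.32 in Notch3+/+ pools. Its groups did not overlap, and its difference of 1.09 (SE 0.27) was the widest of the 50. The LIM protein gene Csrp2 differed by 0.42 (SE 0.10), and the PDZ and LIM domain genes Pdlim1 and Pdlim2 by -0.31 (SE 0.09) and 0.28 (SE 0.09). Tcap, the telethonin gene, differed by -0.60 (SE 0.21) with overlapping groups. It is also on the list of skeletal muscle markers, of which 14 of 15, Tcap among them, were lower. The sums of that list overlapped between the genotypes.

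Of 11 binding partners 0 had an unadjusted p under 0.05, and the median was 0.02. The 5 with the smallest p were Cbl (0.17), Evl (0.18), Ezr (-0.16), Abl1 (0.11) and Flot1 (-0.13), with an SE of 0.08 to 0.11. Cbl and Abl1 encode a ubiquitin ligase and a tyrosine kinase that bind Sorbs adaptors. The profilin gene Pfn1, named after its values were seen, read 10.20, 8.27 and 10.25 in Notch3-/- pools and 10.09 to 10.15 in Notch3+/+ pools, so that Notch3-/- replicate 2 alone lay below the Notch3+/+ range, with a difference of -0.56 (SE 0.48).

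**Figure D4:**
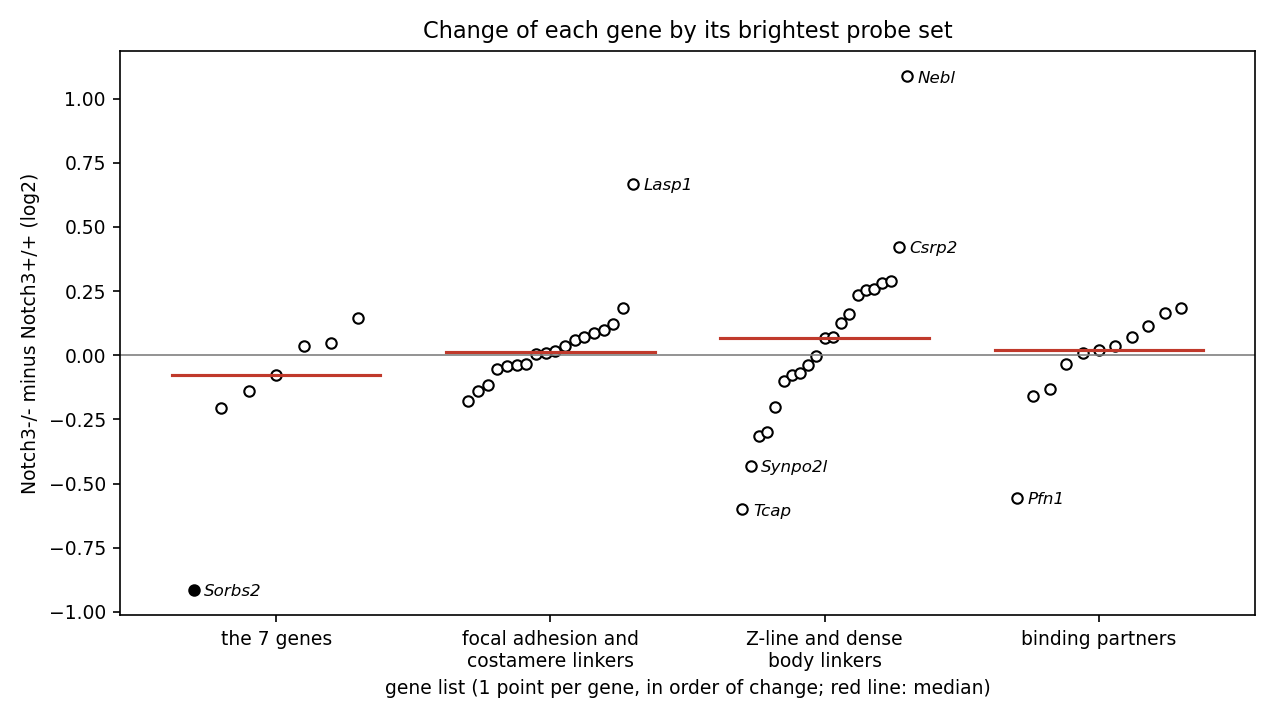
Notch3-/- minus Notch3+/+ difference (log2) of each gene by its brightest probe set, for the 7 genes, 18 focal adhesion and costamere linkers, 21 Z-line and dense body linkers and 11 binding partners, with the median of each list as a red line. Sorbs2, filled, is the called gene and has the lowest value; Nebl at 1.09 and Lasp1 at 0.67 are the highest.

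The genes whose values followed the brightest Sorbs2 probe set most closely over the 6 arrays, by Pearson r among the tested genes outside the 7, were Fbxl2, Reep1, Nup54, Mutyh and Rab27b, at r of 0.992 to 0.998. All 5 were lower in Notch3-/- arteries, by 0.16 to 0.62, and limma called 0 of them. The most opposite were Gli2, Slc18b1, Tram2, Cdca4 and Prxl2a, at r of -0.998 to -0.992, with values 0.17 to 0.56 higher in Notch3-/- arteries and 0 calls. These r are descriptions over 6 arrays that share the split between the genotypes.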

How the data were processed

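Each of the 6 MOE430 2.0 arrays has 1 log2 value per probe set as deposited by the authors, made with RMA (background correction, quantile normalization, probe summary), per the submitters' processing notes; the sources used here name no version or chip definition for it. Values ran from 1.38 to 13.38, and scanner files and detection calls were not used here. Arrays correlated at r between 0.978 and 0.994, and 3 pools per genotype limit the precision.

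After removal of 64 control probe sets, those with a mean at or above the 40th percentile (3.83) were kept, 27027 in all. Genotype was fitted with limma 3.58.1 in R 4.3.3 (lmFit, eBayes), with two-sided p-values adjusted by Benjamini-Hochberg over all of them. Genes were represented by their brightest probe set, and distances between probe sets of 1 gene were fitted likewise over 10093 pairs. Both fits were tested on simulated data without an outlying array. In the genotype fit 42% of 1.5-fold and 78% of 2-fold changes were called among 27027 probe sets. For pairs only a log2 shift of 2 was simulated, of which 100% were called, so recovery of smaller differences between probe sets was not tested.

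Members and lists were chosen with earlier results of these data known. Named were all member probe sets, the 5 genes per linker list with the smallest p, and the 5 genes most and least like Sorbs2. Pfn1, Des and Fhl2 were named after their values were seen. Marker lists without values in the text, with counts of tested genes higher and lower in Notch3-/- arteries, were adipocyte (1 and 6) and Schwann cell (1 and 3). The alternatives were level filters, variance models, normalizations, array weights, a replicate block, a looser threshold, other probe set choices and the omission of each array.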

Additional observations from a re-analysis of the deposited data

How the results depend on the processing

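The Sorbs2 change on 1437197_at stayed between -1.0 and -0.82 under every alternative that kept this probe set, but its call was lost with weights by mice pooled (-0.90), with the replicate number as a block (-0.91) and with any 1 array omitted. Represented by the mean over its 3 tested probe sets Sorbs2 read -0.63, and by its most variable probe set, 1441624_at, -0.94, neither of them called. The count of called member probe sets was accordingly 0 with weights by mice pooled, 0 in the replicate block fit, in which 57 probe sets were called in all, and 0 with each array omitted, where the count over all probe sets ran from 13 to 62. Array weights, which set Notch3-/- replicate 3 at 3.04 and Notch3-/- replicate 2 at 0.29, gave 978 called probe sets, 3 of them members (the first and second Sorbs2 and the second Synpo2 probe sets, at 0.54 for Synpo2), 5 linker genes, 703 pairs of probe sets and 2 member pairs. A threshold of 0.10 gave 142 probe sets and 2 pairs, and no level filter gave 5 pairs. Uncalled values near 0 turned sign: with array weights 1446744_at of Sorbs2 (0.061), Sorbs3 (0.12), 1435399_at (-0.0027) and 1450828_at (0.11) of Synpo2 and 1416157_at of Vcl (0.085); with quantile normalization 1435399_at (-0.0067); with the mean over probe sets Actn1 (-0.15) and Vcl (-0.042); and with the most variable probe set Actn1 (-0.30) and Vcl (-0.23). With each array omitted, the changes ran from -0.16 to 0.025 for 1446744_at, from -0.23 to 0.17 for Sorbs3, from -0.075 to 0.15 for 1435399_at, from -0.24 to 0.093 for 1450828_at, from -0.25 to 0.0017 for 1427228_at, from -0.13 to 0.0033 for 1433768_at and from -0.09 to 0.24 for 1440635_at of Palld, from -0.012 to 0.098 for 1428585_at of Actn1 and from -0.40 to 0.11 for 1416157_at. The cause was not tested. The genotypes share replicate numbers, but the labels do not say that these mark pairs, so the numbers were not taken as pairs. Deviations from the group means correlated at 0.24, 0.05 and -0.07 for same-numbered arrays. For arrays of different numbers they correlated at -0.17 to 0.14, so these values do not settle whether the arrays were paired.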
